A study of Homo sapiens with 2 samples.

Results

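The Polycomb, trithorax and SWI/SNF chromatin regulators and the DNA methyltransferases were described on both arrays of the series as a fixed list of 56 genes. Members were the probe sets annotated to exactly 1 listed gene, with no filter on measured values. The list itself was chosen with earlier results of these data known. Such probe sets existed for 53 of the 56 genes, and all 53 were measured, out of 12663 measured genes in all. BMI1, RNF2 and CBX8 had none and enter none of the values below.

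The series held 2 Affymetrix U133 Plus 2.0 arrays of total RNA from SK-N-MC, a human tumour line that the submitters call a neuroepithelioma line and that is now placed in the Ewing tumour family. The vector control (number 1) carried the empty pCMV-Script plasmid. The melanotransferrin cells (hyperexpression clone 4) carried the human melanotransferrin cDNA in the same plasmid, and both lines were stable transfectants made with a lipid reagent. Each group was 1 array of 1 transfected line, so the values below have no replicate SD, and the groups could not be tested against each other. The comparison asks which transcripts differ when melanotransferrin, a membrane-bound relative of the iron carrier transferrin, is made in excess, and a difference between these lines cannot be told apart from a difference between any 2 transfected lines.

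Polycomb proteins work in 2 complexes that keep genes silent. Polycomb repressive complex 2 (PRC2) methylates histone H3 at lysine 27, and PRC1 binds that mark or acts beside it and attaches ubiquitin to histone H2A. Trithorax proteins work against them: the MLL complexes methylate histone H3 at lysine 4 at promoters and enhancers, and SWI/SNF complexes use ATP to slide or eject nucleosomes. In Ewing tumours the fusion protein EWSR1-FLI1 is known to draw SWI/SNF to its binding sites, and EZH2 is among its known targets.

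Signals are linear intensities, and a gene is represented by its brightest probe set unless the others are named. A signal of 208 was taken as the floor, and a gene at or above it on at least 1 array counts as measured. A probe set at or above it on both arrays is called readable. Log2 ratios are clone over control as deposited, and their median over all measured genes was -0.022. Both arrays had been scaled to the same mean, so higher and lower hold relative to all genes. The spike probe sets showed how far that scaling matters: centring on the hybridisation spikes would move every log2 ratio by 0.50, and doing so on the poly-A spikes by -0.61. Of the 4 probe sets for melanotransferrin (MELTF), 1 read 18.4 (control) and 4449.4 (clone), while the rest showed no such rise; which of them read the inserted cDNA was not checked. Of the Ewing family markers, 9 of the 9 with a probe set passed the floor on both arrays, with a summed signal of 163180 in the control and 180188 in the clone. Markers of adrenergic neuroblasts lay below it on both arrays for 3 of 4 genes, and TH and DBH, the enzymes that define those cells, read 22 and 8.7 and 27.2 and 9.8. Other cell types had 6 of 6 fibroblast, 1 of 4 leukocyte, 2 of 5 epithelial and 1 of 4 endothelial markers above the floor on both arrays. Some were bright. The fibroblast markers summed to 43159.2 in the control and 38412.8 in the clone. The leukocyte gene PTPRC read 15581.1 and 13942.6, and the epithelial KRT18 9759.9 and 10363. The part of these markers in the results was not tested. Olfactory, taste receptor and hair keratin-associated probe sets had a median signal of 67.4 in the control and 43 in the clone.

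The chromatin regulators gave much the same signal in the clone as in the control. All 53 measured members were above the floor on both arrays, none was 2-fold apart, and 36 of them differed by less than 1.2-fold. That was 67.9% of members, beside 56.9% of all measured genes. Among measured genes with a mean signal of 1000 or more the share was 67.7%, much the same as for the members. WDR5 of the MLL core, SMARCA2 of SWI/SNF and EZH1 of PRC2 passed 1.5-fold on the high side. KDM5C, a histone H3 lysine 4 demethylase, was at least 1.5-fold lower.

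The share of members that were higher was close to that of all measured genes, and the share that were lower was smaller. At least 1.5-fold higher in the clone were 3 of 53 members, 5.66%, beside 5.38% of all measured genes. At least 1.5-fold lower was 1 of 53 members, 1.89%, beside 8.44% of all measured genes. Members were mostly bright, with a mean signal of 1000 or more for 96.2% of them and for 58.6% of all measured genes. Among measured genes that bright, 3.89% were 1.5-fold higher and 1.94% were 1.5-fold lower. At 2-fold the shares of all measured genes were 1.21% higher and 1.9% lower, and 0 of 53 members passed in either direction. The members' median log2 ratio was 0.073, or 0.095 above the median of all measured genes, and 31 of 53 lay above that median. Measured genes with a mean signal of 1000 or more also lay higher. Their median was 0.025, or 0.046 above that of all measured genes, and 4245 of 7426 lay above the latter. The spread was 0.36 between the lower and upper quartile of the members, 0.44 over all measured genes and 0.34 over measured genes with a mean signal of 1000 or more. Calls in either direction were tied to the scaling, for the members as for all genes. With hybridisation spikes set equal, 23 members (43.4%) were 1.5-fold higher and 0 lower, beside 36.7% and 1.29% of all measured genes. With poly-A spikes set equal, 0 were higher and 23 (43.4%) lower, beside 0.60% and 56.1%. Both are 1 constant shift of every gene, so they leave the members' place among all genes as it was.

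**Figure D1:**
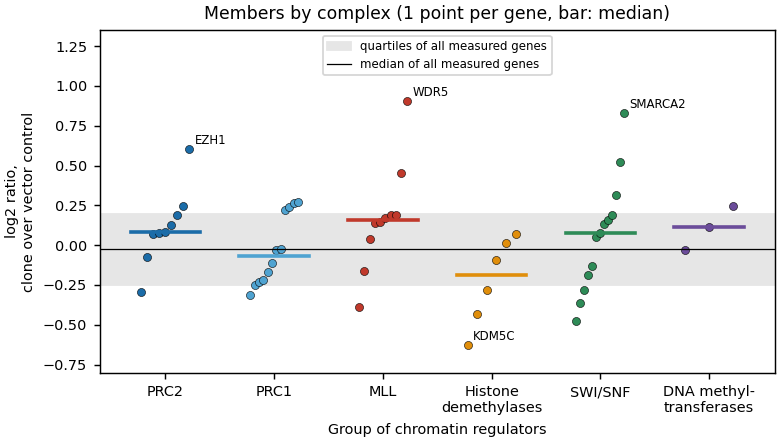
Log2 ratio of clone over vector control for each measured member (1 point per gene, its brightest probe set), by complex; bars are group medians, the grey band runs from the lower to the upper quartile of all measured genes and the black line their median. Group medians run from -0.19 for the histone demethylases to 0.16 for the MLL complexes, and the 4 named genes are those at least 1.5-fold apart.

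**Figure D2:**
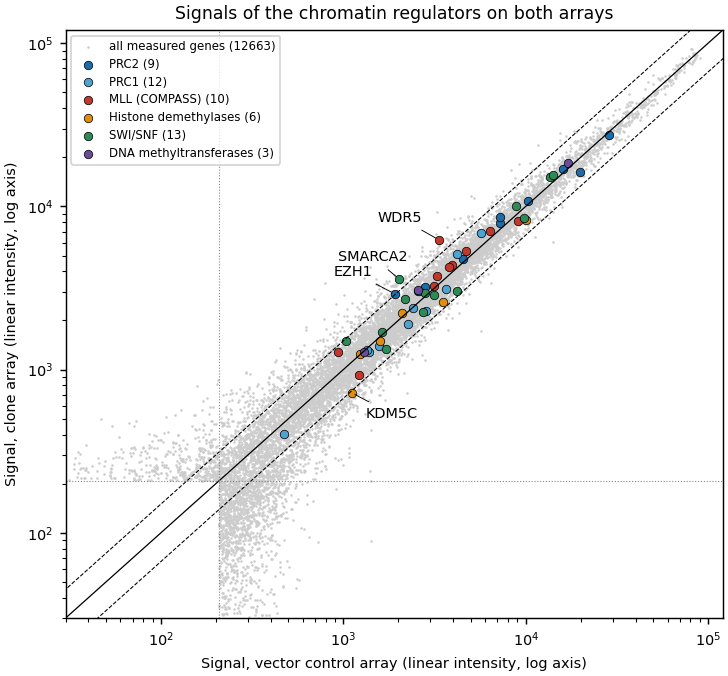
Signal of each measured member on the vector control array (x) and the clone array (y), linear intensity on log axes, over all 12663 measured genes in grey; the solid line is equality, dashed lines are 1.5-fold and dotted lines the floor of 208. The members lie along the line of equality, and 51 of 53 have a mean signal of 1000 or more.

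Probe sets that read 1 gene on the same arrays were the sole repeat measurement. Members had 182 single-gene probe sets, of which 142 were readable, 9 passed the floor on 1 array and 31 on neither. Of the 142, 77 lay above the median of all measured genes and 65 below it. Within genes, log2 ratios had a pooled SD of 0.35 over 5387 genes and 0.31 over the members. It covers disagreement between probe sets and leaves out the variation between cultures, RNA preparations and arrays. Of 37 members with at least 2 readable probe sets, 9 had all of them above the median of all genes, 7 had all of them below it and 21 had them on both sides. The 9 genes on the high side were SUZ12, JARID2, PHF1, PHC2, KMT2E, WDR5, SMARCA2, SMARCE1 and ARID2. RING1, PCGF5, PHC1, KDM5B, KDM5C, SMARCC1 and SMARCD1 made up the lower 7. Several of these genes had only 2 readable probe sets. The same counts were not taken over all genes, so they are not a result about the members.

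**Figure D3:**
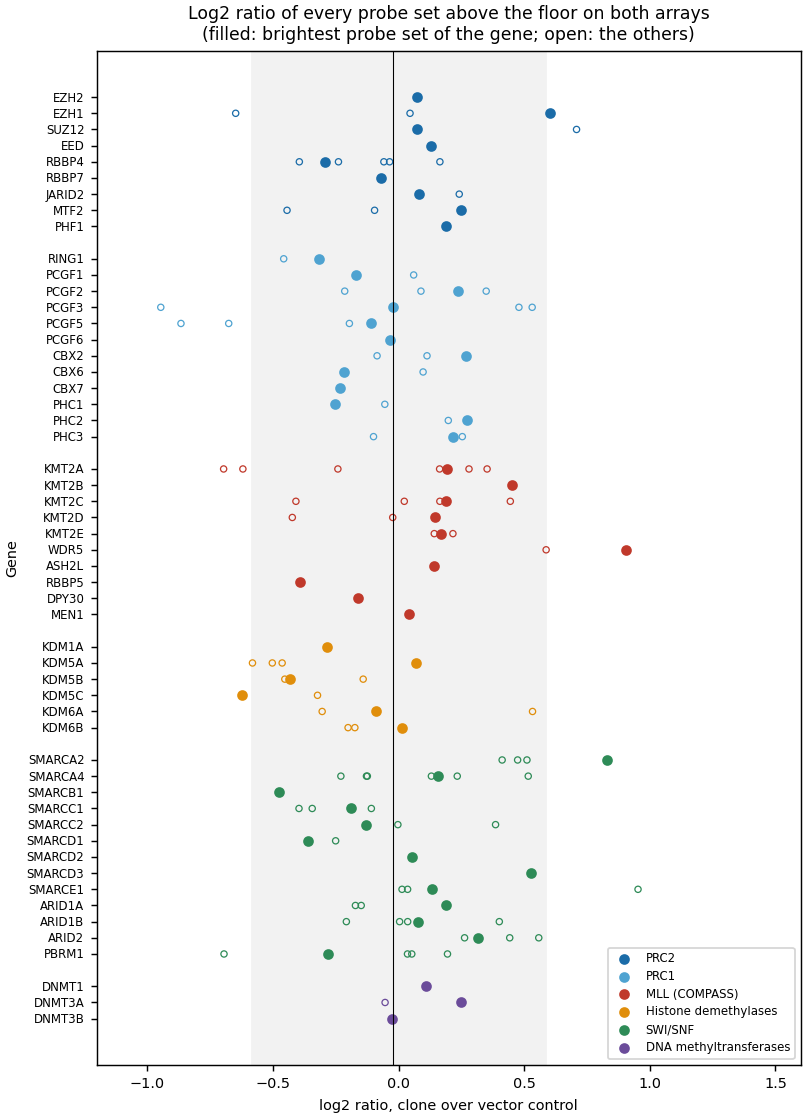
Log2 ratio of clone over vector control for each of the 142 readable member probe sets, by gene; filled points are a gene's brightest probe set and open points the others, the grey band marks less than 1.5-fold and the line is the median of all measured genes. All probe sets of WDR5 and SMARCA2 lie on the high side and all of KDM5C and KDM5B on the low side, whereas those of EZH1, PCGF3 and KMT2A span more than 1 on the log2 scale.

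The catalytic and core subunits of PRC2 differed little. EZH2, the main H3 lysine 27 methyltransferase of dividing cells, had signals of 16098.2 (control) and 16941.9 (clone) on its only probe set, a log2 ratio of 0.074. SUZ12, the scaffold of the complex, read 10236.4 and 10767.2, and EED, which reads the methyl mark, 7190.1 and 7854. Both were under 1.1-fold higher, at 1.05-fold and 1.09-fold. A dim second SUZ12 probe set read 357.9 and 584.8, and that of EED 128.6 and 268.4, the former value below the floor. RBBP4 and RBBP7 are histone chaperones shared with other complexes. RBBP4 read 19850 and 16185, with log2 ratios from -0.39 to 0.16 over 6 probe sets, and RBBP7 read 28724.2 and 27329.7.

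EZH1, the paralog of EZH2 found more in resting cells, was higher on its brightest probe set and not on the others. That probe set read 1914.2 and 2908.4, 1.52-fold higher. The next, nearly as bright, read 1709.7 and 1764.7, and the last readable one went the other way, from 1244.5 to 794.1, 1.57-fold lower. The median over the 3 was 0.046 on the log2 scale, so the direction for EZH1 depended on the probe set chosen. After a loess or quantile normalization EZH1 was no longer 1.5-fold higher on its brightest probe set either, and it was at -0.0066 on the log2 scale when centred on the poly-A spikes.

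The accessory subunits that guide PRC2 to chromatin were slightly higher. JARID2 read 4525.6 and 4784, MTF2 7236.4 and 8595.7, and PHF1 2804.2 and 3192. Their log2 ratios were 0.080, 0.25 and 0.19, and 7 of their 9 readable probe sets lay above the median of all genes. The exceptions belonged to MTF2, whose 5 probe sets ran from -0.44 to 0.25. Over the 9 PRC2 members the median log2 ratio was 0.080.

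PRC1 is built on a RING ligase paired with 1 of several PCGF proteins. RING1, the measured ligase, read 2853.6 and 2294.2, 1.24-fold lower, and its second probe set had a log2 ratio of -0.46. The PCGF proteins define the variants of PRC1. PCGF2 read 2568.6 and 3028.8, 1.18-fold higher, and PCGF1, of the variant with KDM2B, read 1576.8 and 1403.8. PCGF6 read 1348.2 and 1318.2 on its 1 probe set. PCGF5 read 1383.8 and 1282.4 on its brightest probe set, and its 4 probe sets were all lower, from -0.87 to -0.11 on the log2 scale. Probe sets of PCGF3 disagreed most among the members. Its brightest read 2408.9 and 2369.5, the next was lower, at 1254.6 and 651.1, a 1.93-fold difference, and the other 2 readable ones were higher, at 0.53 and 0.48 on the log2 scale.

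The CBX proteins carry the chromodomain that recognises methylated H3 lysine 27, and the PHC proteins polymerise PRC1. CBX2 read 4221.6 and 5081.7, a log2 ratio of 0.27, whereas CBX6 read 3633.3 and 3124.4 and CBX7 471.6 and 401.3, 1.16-fold and 1.18-fold lower. The readable probe sets of CBX2 ran from -0.085 to 0.27 on the log2 scale, and the other one of CBX6 was at 0.098. PHC2 and PHC3 were higher, from 5664.9 to 6843.9 and from 2605.9 to 3030.5. PHC1 was lower, from 2261.6 to 1897.7, a log2 ratio of -0.25 on that probe set and -0.055 on the other. The 12 measured PRC1 members had a median log2 ratio of -0.071, with 4 above the median of all genes and 8 below it.

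The MLL complexes consist of 1 large KMT2 methyltransferase and a shared core of WDR5, RBBP5, ASH2L and DPY30. The KMT2 genes were all slightly higher on their brightest probe set. KMT2A, the gene broken in MLL leukaemia, read 3278.6 and 3745, KMT2B 937.9 and 1283.6, KMT2C 4685.8 and 5339.1, KMT2D 3934.6 and 4352, and KMT2E, a divergent member, 3787.4 and 4256.9. Their log2 ratios lay between 0.15 for KMT2D and 0.45 for KMT2B, which was above the floor on 1 probe set only. Of the 19 KMT2 readable probe sets, 13 lay above the median of all genes and 6 below it. KMT2A had both kinds among its 7, at 0.35 on the highest and at -0.70 on the lowest, which was also the dimmest, at 467.1 and 288.3. KMT2C had 1 of 5 below that median, at -0.41. KMT2D had 2 of 3 below it, at -0.023 and -0.42.

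The shared core gave both directions. WDR5, the scaffold that holds the enzyme and the histone tail, had signals of 3334.7 in the control and 6245.2 in the clone. It was 1.87-fold higher, and its second probe set, at 2171.5 and 3262.6, had a log2 ratio of 0.59. ASH2L read 6394.4 and 7051.5 (1.10-fold higher), RBBP5 1220.7 and 930.7 (1.31-fold lower) and DPY30 9081.1 and 8115.1 (1.12-fold lower), each on 1 probe set. MEN1, the adaptor menin of the KMT2A and KMT2B complexes, read 3158.3 and 3246.4. The 10 MLL members had a median log2 ratio of 0.16, and 0.15 without WDR5.

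The demethylases that remove methyl groups from H3 lysine 4, and so oppose the MLL complexes, were mostly lower in the clone. KDM5C read 1110.6 and 720.6, 1.54-fold lower, and its second probe set read 1015.4 and 812, a log2 ratio of -0.32. KDM5B read 3521.8 and 2611.3, a log2 ratio of -0.43, with 3 probe sets from -0.45 to -0.14 on the log2 scale. KDM1A, the flavin-dependent demethylase of the CoREST complex, read 10048 and 8250.1 on its only probe set, 1.22-fold lower. KDM5A read 2101.6 and 2207.6 on its brightest probe set. Its other 3 readable probe sets were lower, with log2 ratios of -0.50, -0.58 and -0.46. Over these 4 genes, 9 of 10 readable probe sets lay below the median of all genes, with a median log2 ratio of -0.44. By brightest probe set, 3 of the 4 genes lay below it, with a median of -0.36. When centred on the hybridisation spikes KDM5C was at -0.12 on the log2 scale.

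The H3 lysine 27 demethylases, which undo the work of PRC2, differed less. KDM6A read 1593.4 and 1495.6, and its 3 probe sets ran from -0.30 to 0.53 on the log2 scale. KDM6B read 1237.6 and 1249.4. One of its dimmer probe sets had signals of 468.6 and 198.4, the latter just under the floor, and was at least 2.25-fold lower, whereas its other 2 readable ones had log2 ratios of -0.20 and -0.17.

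SWI/SNF complexes contain SMARCA4 or SMARCA2 as the motor. SMARCA4 had signals of 13594.5 and 15164.1, 1.12-fold higher, and its 7 readable probe sets ran from -0.23 to 0.52 on the log2 scale. SMARCA2 read 2021 and 3593.7, 1.78-fold higher. Its other 3 readable probe sets were higher too, at 2063.5 and 2865.9, 1496.4 and 1991.4, and 1045.3 and 1489.6. Their log2 ratios were 0.47, 0.41 and 0.51, so the brightest probe set gave the highest of 4 values, whose median was 0.49. All 4 carry IDs that mark shared sequence, and without such probe sets SMARCA2 had no value.

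The structural subunits of SWI/SNF gave both directions. SMARCB1, the tumour suppressor lost in rhabdoid tumours, read 4222.8 and 3033.8 on its 1 probe set above the floor, 1.39-fold lower. SMARCC1, a scaffold subunit, read 9726.7 and 8539.5, and all 4 of its probe sets were lower, from -0.40 to -0.11 on the log2 scale. Its paralog SMARCC2 read 3143.6 and 2874.8. SMARCE1 read 14155 and 15504.7, and its dimmest probe set, at 573.1 and 1109.5, was 1.94-fold higher while the 2 others were at 0.014 and 0.036 on the log2 scale. The SMARCD paralogs, of which a complex holds 1 kind, differed from each other. SMARCD1 read 1707.5 and 1329.7, 1.28-fold lower, SMARCD2 1637.2 and 1698.1, and SMARCD3 1036.8 and 1492.4, 1.44-fold higher.

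The large DNA-binding subunits separate the BAF and PBAF forms of SWI/SNF. ARID1A of BAF read 8869.3 and 10110, and its other 2 readable probe sets were lower, at -0.15 and -0.17 on the log2 scale. ARID1B read 2810.6 and 2963.4. ARID2 of PBAF read 2170.1 and 2704.6, 1.25-fold higher, and all 4 of its probe sets were higher, from 0.26 to 0.56 on the log2 scale. PBRM1, the bromodomain subunit of PBAF, read 2749.8 and 2265.8, with 5 probe sets from -0.69 to 0.19. Over the 13 SWI/SNF members the median log2 ratio was 0.076, with 8 above the median of all genes.

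The DNA methyltransferases stayed within 1.2-fold. DNMT1, which copies methylation after replication, read 16971.5 and 18329.8, a log2 ratio of 0.11. DNMT3A, an enzyme of new methylation, read 2577.9 and 3058.5 on its brightest probe set, 1.19-fold higher, and 688.6 and 663.5 on the next. DNMT3B, the other such enzyme, read 1301 and 1276.4.

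Pairs of members were compared by the difference of their log2 ratios, which a constant scaling of an array does not change. Most pairs were paralogs that take the same place in a complex. JARID2 and MTF2 were paired as accessory subunits of PRC2, and ARID1A and ARID2 belong to different forms, BAF and PBAF. Of 24 pairs, 21 had both genes measured, and the median size of the difference was 0.19. Only SMARCD1 against SMARCD3 differed by more than 0.70, which is 2 pooled SD of single probe sets. A difference between 2 probe sets has a wider SD than 1 probe set has, so 0.70 is less than 2 SD of a difference. The log2 ratios of SMARCD1 and SMARCD3 were -0.36 and 0.53, a difference of -0.89. The probe sets of SMARCD1 and the 1 of SMARCD3 above the floor did not overlap. SMARCA2 stood 0.67 above SMARCA4, and 0.36 above it by the medians of their probe sets, whose ranges overlapped. PHC1 stood below PHC2 by -0.53, and CBX2 above CBX7 by 0.50, both without overlap of their probe sets. Of the 21 pairs, 6 had no overlap, among them also KMT2A against KMT2B and SMARCD1 against SMARCD2. Overlap was not counted for other pairs of genes, and CBX7, KMT2B, SMARCD2 and SMARCD3 each had only 1 readable probe set. With medians over readable probe sets in place of the brightest, 4 pairs moved by more than 1 pooled SD. EZH2 against EZH1 went from -0.53 to 0.028 and KDM5A against KDM5B from 0.50 to -0.051. PCGF3 against PCGF5 went from 0.086 to 0.66, with probe sets that overlapped, and ARID1A against ARID2 from -0.13 to -0.53, with probe sets that did not.

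**Figure D4:**
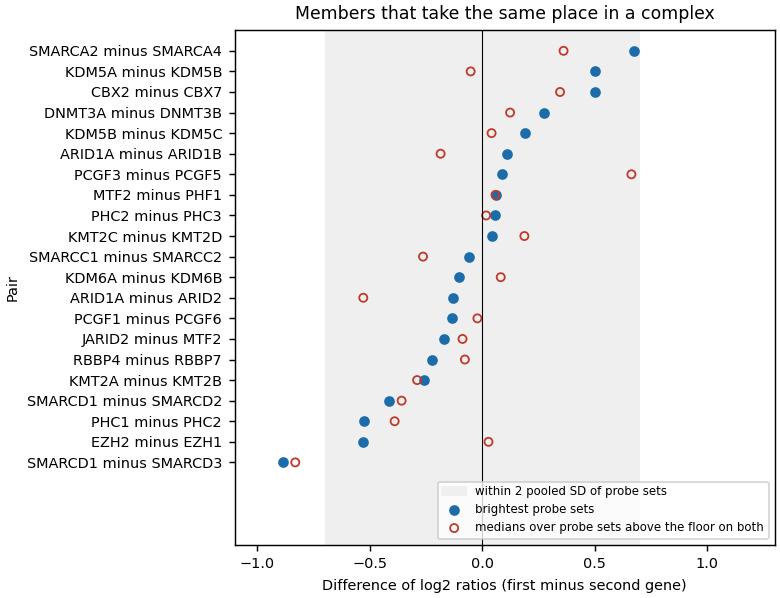
Difference of log2 ratios between paired members, most of them paralogs that take the same place in a complex, first minus second gene. Filled points use the brightest probe sets and open points the medians over readable probe sets. The grey band is 2 pooled SD of single probe sets, which is less than 2 SD of a difference. SMARCD1 minus SMARCD3 is the 1 pair outside the band, at -0.89.

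WDR5 and SMARCA2, the most different members by brightest probe set, were also the members on chromosome 9. Of 504 measured genes of that chromosome, 34.9% passed 1.5-fold on the high side and 3.37% on the low side, and their median log2 ratio was 0.44. The next highest median among chromosomes with 50 or more measured genes was 0.10, on chromosome 13, which carries no measured member. Among the 51 members on other chromosomes, 1 was 1.5-fold higher and 1 was lower, 1.96% each, beside 4.15% and 8.65% of the 12159 measured genes there. WDR5 and SMARCA2, with log2 ratios of 0.91 and 0.83, lay above that median. Each gene's neighbours in chromosome order were higher in part. Next to WDR5, BRD3 read 4820.9 and 8649.8, COL5A1 1729 and 4308, and OLFM1 9134.6 and 18236.7, whereas RXRA, its direct neighbour on the other side, read 3697.1 and 3981.9. Of its 10 nearest measured genes 8 lay above the median of all genes, and of the 8 nearest SMARCA2, 6 did, with VLDLR at 227.9 and 572.7 and KANK1 at 2406.2 and 3706.3. KDM5C lies on chromosome X, where 8.31% of 421 measured genes were 1.5-fold lower.

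**Figure D5:**
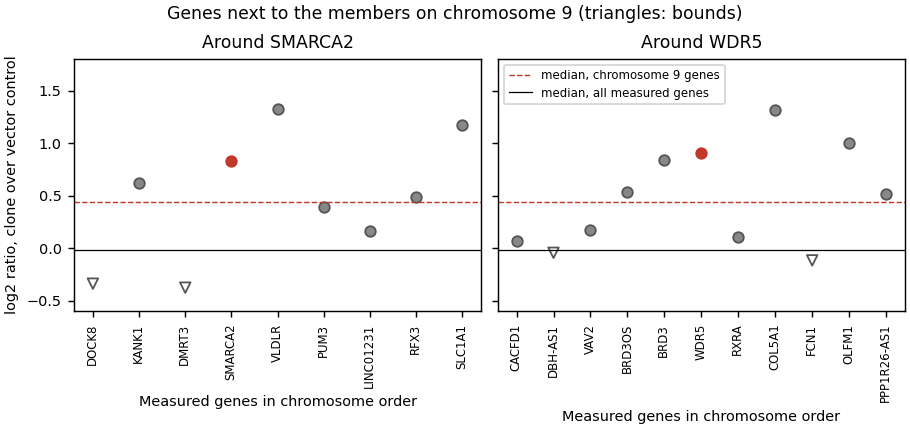
Log2 ratio of clone over vector control for SMARCA2 (left) and WDR5 (right), in red, and their nearest measured genes in chromosome order, in grey; open triangles are genes below the floor on the clone array, whose values are bounds, the dashed line is the median of chromosome 9 genes (0.44) and the solid line that of all measured genes. The neighbours of SMARCA2 run from -0.38 to 1.33 and those of WDR5 from -0.12 to 1.32.

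The promoters of the 2 higher genes of chromosome 9 and of KDM5C are given as examples of the members' promoters. Each is the 250 bases before the gene's start in RefSeq (build GRCh38.p14), 5′ to 3′ on the gene's strand, with matches to 6 motifs in capitals. The motifs, searched on both strands, were the GC box GGGCGG, the core CGGAAG of ETS factor sites, the tandem repeat GGAAGGAA, the CCAAT box CCAAT, the E box CACGTG and the TATA box TATAAA; the tandem repeat can overlap an ETS core.
WDR5 (chr9:134134949-134135198, + strand): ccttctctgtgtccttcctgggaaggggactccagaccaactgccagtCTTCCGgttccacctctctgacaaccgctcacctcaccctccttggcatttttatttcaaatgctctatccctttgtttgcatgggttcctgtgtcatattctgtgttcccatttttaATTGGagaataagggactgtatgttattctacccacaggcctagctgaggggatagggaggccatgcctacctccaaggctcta
SMARCA2 (chr9:2015097-2015346, + strand): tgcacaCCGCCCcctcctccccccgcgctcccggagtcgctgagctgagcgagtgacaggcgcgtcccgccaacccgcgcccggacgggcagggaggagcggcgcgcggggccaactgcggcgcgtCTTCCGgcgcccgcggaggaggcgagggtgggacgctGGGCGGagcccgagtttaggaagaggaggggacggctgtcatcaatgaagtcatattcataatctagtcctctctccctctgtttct
KDM5C (chrX:53225208-53225457, - strand): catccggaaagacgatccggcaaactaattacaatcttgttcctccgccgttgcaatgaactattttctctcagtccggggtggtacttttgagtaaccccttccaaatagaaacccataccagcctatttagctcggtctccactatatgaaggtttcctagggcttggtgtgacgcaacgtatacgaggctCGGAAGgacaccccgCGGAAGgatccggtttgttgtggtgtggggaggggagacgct
The ETS core was the motif found in all 3 windows, with 1 match each in WDR5 and SMARCA2 and 2 in KDM5C. SMARCA2 also held 2 GC boxes and WDR5 1 CCAAT box. EZH1, the other member past 1.5-fold by brightest probe set, is not printed. Its promoter held a GC box and no ETS core. The windows differed in composition, with 2 CpG dinucleotides in WDR5, 29 in SMARCA2 and 15 in KDM5C. Promoters of 47 of the 53 measured members were in the RefSeq table, and the shares that hold each motif are given beside those of the 22199 promoters of protein-coding genes and of all 35116 promoters. The ETS core was found in 25.5% of member promoters, 20.2% of protein-coding ones and 16.5% of all. The GC box was found in 66%, 53.7% and 42.6%, and the E box in 14.9%, 7.37% and 6.34%. The CCAAT box stood in 38.3%, 32.7% and 32%, and the TATA box in 6.38%, 9.0% and 10.7%. The tandem repeat was in 0 of 47 member promoters, 3.17% of protein-coding ones and 3.06% of all. Member promoters had a median of 66.8% G and C bases, protein-coding ones 62% and all promoters 58%. A match of letters is a description of the window, and binding was not measured.

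Other genes of the same pathways were read from a list of 107 further genes. Single-gene probe sets existed for 103 of these, and 99 were measured. Of the 99, 3 were at least 1.5-fold higher and 6 at least 1.5-fold lower, beside 5.38% and 8.44% of all measured genes. The median log2 ratio was 0.044. PSIP1, the chromatin reader that ties menin and KMT2A to nucleosomes, read 10597.5 and 18352.5, 1.73-fold higher, with 3 probe sets from 0.79 to 0.85 on the log2 scale. MLLT3, a frequent fusion partner of KMT2A, read 1231.7 and 1918.7, 1.56-fold higher. Both lie on chromosome 9, as do 4 more of the 99 genes, which were under 1.5-fold. BICRAL of the non-canonical SWI/SNF complex read 585.1 and 944.1, 1.61-fold higher, and 0.24 on the log2 scale on its other probe set.

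Part of that list covered the MLL and related SET1 complexes and further genes outside them, among them RCOR1, HDAC1, HDAC2 and DOT1L. Of its 19 measured genes, 14 lay above the median of all genes, with a median log2 ratio of 0.11. Of measured genes with a mean signal of 1000 or more, 4245 of 7426 did. In that part, 2 genes were 1.5-fold higher (PSIP1 and MLLT3) and 2 lower. SETD1A, a SET1-type H3 lysine 4 methyltransferase, read 491.7 and 230.6 on its 1 probe set above the floor, 2.13-fold lower, with the clone signal near the floor. HCFC1, a cofactor of SET1 and MLL complexes, read 3906.8 and 2538, 1.54-fold lower. The other SET1 subunits on the list, SETD1B, CXXC1 and WDR82, had log2 ratios of -0.069, 0.14 and 0.12. BCL7A, a SWI/SNF subunit, read 2256.9 and 1238.4, 1.82-fold lower, and its second probe set had a log2 ratio of -0.58. BCORL1, a corepressor of PCGF1-containing PRC1, read 1099.6 and 698.9, 1.57-fold lower, and its 3 probe sets ran from -0.65 to 0.54. KDM1B, the paralog of KDM1A, read 1096.2 and 683.7, a log2 ratio of -0.68 on its only probe set above the floor.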

How the data were processed

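Total RNA of both lines was measured on 1 array each. The deposited values are linear intensity values, 1 per probe set, made by the authors with GCOS version 1.3 (per the submitters' processing notes). Not given in the sources used here are the way GCOS summarised probes, its scaling target and any detection calls. As deposited, the mean after dropping the lowest and highest 2% of signals was 999.9 on both arrays.

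Of 54675 probe sets, 41097 had 1 gene symbol in the platform annotation of 2016, 1801 had several and 11777 had none; 41043 matched the RefSeq table of GRCh38.p14 by gene ID, which gave symbols, chromosomes and gene order. The floor was the 90th percentile of 189 probe sets for receptors of smell and taste and for hair keratin-associated proteins. With 1 array below it, the other was set against the floor, giving a bound; a gene below it on both had no value. Fold thresholds were 1.5 and 2. No depth exists for arrays, and their number limits the precision.

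Every member was to be named, with full values for those past 1.5-fold, those whose probe sets disagree by over 1 on the log2 scale, pairs past 2 pooled SD and the core enzymes; further pathway genes past 1.5-fold were named. The members and lists were chosen with earlier results of these data known, and the background of genes with a mean signal of 1000 or more was added after the members' brightness was seen. Alternatives changed the probe set, the floor, the scaling and chromosome 9. Python 3.11.15 was used with numpy 2.4.6, pandas 2.3.3 and statsmodels 0.14.6, and the ratio script was tested on simulated data.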

Additional observations from a re-analysis of the deposited data

How the results depend on the processing

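Each of 36 values, among them the counts, medians, pair differences and the 4 members past 1.5-fold, was recomputed under 11 alternatives where it existed, 385 values in all. A value was taken to have moved when it changed by the pooled SD of probe sets (0.35) or more, or a count by over 1.5 times; 360 did not move. Medians here are relative to all measured genes. With the median of a gene's probe sets, 1 member (WDR5) was 1.5-fold higher and 0 lower, and the differences were 0.028 for EZH2 minus EZH1, 0.87 for PCGF3 minus PCGF5, -0.041 for KDM5A minus KDM5B and -0.54 for ARID1A minus ARID2. These medians take in probe sets above the floor on only 1 array, which the report's medians of readable probe sets leave out. Without probe sets of shared sequence, 38 members were left, 2 were 1.5-fold lower (KDM5B and KDM5C), the demethylase median was -0.55 and KDM5B minus KDM5C was -0.17. Centred on the hybridisation spikes, 23 members were 1.5-fold higher and 0 lower, beside 36.7% and 1.29% of all measured genes, with 4 past 2-fold higher, beside 7.58%. Centred on the poly-A spikes, 0 were higher and 23 lower, beside 0.60% and 56.1%, with 4 past 2-fold lower, beside 15.5%, and EZH1 changed sign to -0.0066. These 2 scalings shift every ratio alike. Without chromosome 9, which removes WDR5 and SMARCA2, 1 member was 1.5-fold higher, beside 4.15% of all genes left. Other floors, the median centring, loess and quantile normalization moved none of these values, although EZH1 dropped under 1.5-fold with the last 2. WDR5 had the highest log2 ratio of the members in each of the 10 alternatives that kept it, and SMARCA2 ranked from 2 to 3 in the 9 that kept it. No paired analysis was possible because each group has 1 array and the groups share no replicate number. Leaving out an array was not possible with 1 per group. The dim probe sets limit precision: the pooled SD was 0.40 for genes whose dimmest probe set averaged under 500 and 0.21 for those where it averaged over 2000.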

Other observations

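Other enzymes and remodellers of chromatin, outside the complexes described above, were read from the same further list. The 9 measured enzymes of H3 lysine 9 and lysine 36 methylation had a median log2 ratio of 0.12 by brightest probe set. By that measure 8 of them lay above the median of all genes, and EHMT1 of chromosome 9 was the highest, at 0.40. Each of the 8 also had a readable probe set below that median. Those of EHMT1 ran from -0.33 to 0.40 and those of NSD3 from -0.24 to 1.23, so the side depended on the probe set chosen. The 11 measured genes that read, copy or remove DNA methylation had a median of -0.095, from -0.30 for TET3 to 0.30 for TET1. By brightest probe set 0 of them passed 1.5-fold, although the other readable probe set of TET3 was lower, at -0.81. Among 16 other remodellers the median was 0.031, and SRCAP, which exchanges histone H2A variants, was the 1 member past 1.5-fold. Its signals were 792.7 and 256.5, 3.09-fold lower in the clone, while its other readable probe set had a log2 ratio of -0.30. HELLS, a remodeller needed for DNA methylation, was at 0.42 on the log2 scale, with 4 readable probe sets from 0.26 to 0.68. CHD3 was at -0.45, and its other readable probe set at 0.36.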
